A study of Rattus norvegicus with 10 samples.

Results

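The MHC class II genes were RT1-Ba, RT1-Bb, RT1-Da, RT1-Db1, RT1-DMa, RT1-DMb, Cd74 and Ciita, measured in rat mammary tumours. The 8 genes were chosen by name, with the log2 signals of these arrays in view, that is with earlier results already known, among them that a probe set was on in a single tumour. Every probe set that the platform annotation gives to one of these genes alone was taken, which made 14 of the 31042 probe sets that are not controls, and 8 of 14217 genes. The probe set with the highest mean log2 signal over all 10 arrays stood for its gene, and 13 of the 14 passed a filter that left out the dimmest 40% of probe sets, those with a mean log2 signal under 5.15.

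All rats were female and of the outbred Sprague-Dawley strain, and their tumours followed 1 oral dose of the carcinogen DMBA at 100 mg/kg. Every array came from such a tumour. The total tumour was collected at sacrifice, at an age of 19 weeks, and the biopsy was a needle core of 0.7 cm by 2.5 mm taken from the same tumour at 12 weeks, when it measured 2 cm3. The design text describes the final samples as needle cores as well, and the labels of the samples were followed here. Both groups held 5 samples, 1 from each of the tumours 31D3, 32D1, 37I1, 50I1 and 52I4, all of Bloom-Richardson grade II and given no treatment, and the question was how a tumour at the end differed from its own biopsy. Affymetrix Rat Genome 230 2.0 arrays were used, and RMA, which evens out the arrays and joins the probes of a probe set into 1 value, gave log2 signals between 2.34 and 14.26. Array medians lay between 5.99 and 6.12, and correlations between arrays across all probe sets between 0.952 and 0.989. Age, way of sampling and moment went together, and the labels number the arrays of each group in 1 run, so that these, a batch and the group cannot be told apart. Epithelial markers were bright in both groups: Epcam averaged 12.93 ± 0.14 in total tumours and 12.92 ± 0.11 in biopsies, and Krt8 12.39 ± 0.33 in total tumours and 12.03 ± 0.57 in biopsies (SD, n = 5 each).

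Class II molecules sit on the surface of cells that present peptides to CD4 T cells, chiefly dendritic cells, macrophages and B cells, and other cells can make them under interferon gamma. In the rat, RT1-B and RT1-D are the classical molecules, each made of an alpha chain (RT1-Ba, RT1-Da) and a beta chain (RT1-Bb, RT1-Db1). Cd74, the invariant chain, guards the groove of a new class II molecule, and RT1-DMa and RT1-DMb form the DM molecule that swaps the remnant of Cd74 for a peptide. Ciita is the coactivator that class II promoters need. It is recruited by factors bound to the X1, X2 and Y boxes, the RFX complex, CREB-type factors and NF-Y. The peptide-binding parts of the classical chains are highly polymorphic between rats.

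The stretch just before each gene is shown here as the place where such boxes were looked for. Whether they have a part in the joint movement of the 8 genes in these tumours was not tested. RefSeq's promoter table on build GRCr8 held 6 of the 8 genes. Each sequence runs 5′ to 3′ on the gene's strand and ends before the outermost annotated start. Capitals mark matches to ATTGG (the core of the Y box, an inverted CCAAT) and GCAAC (part of the X1 box), on either strand, and to TGACGTCA (a full X2 site).
RT1-Ba: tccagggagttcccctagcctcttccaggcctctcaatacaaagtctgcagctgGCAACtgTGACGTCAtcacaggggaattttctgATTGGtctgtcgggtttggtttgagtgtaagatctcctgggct
RT1-Bb: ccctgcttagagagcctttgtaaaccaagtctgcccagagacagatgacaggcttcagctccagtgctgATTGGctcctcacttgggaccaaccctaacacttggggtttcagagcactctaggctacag
RT1-Da: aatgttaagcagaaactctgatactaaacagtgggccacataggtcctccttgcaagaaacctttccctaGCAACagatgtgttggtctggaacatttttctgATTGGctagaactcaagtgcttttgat
RT1-Db1: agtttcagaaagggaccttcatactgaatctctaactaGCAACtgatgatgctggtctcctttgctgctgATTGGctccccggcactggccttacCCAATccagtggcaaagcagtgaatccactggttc
RT1-DMa: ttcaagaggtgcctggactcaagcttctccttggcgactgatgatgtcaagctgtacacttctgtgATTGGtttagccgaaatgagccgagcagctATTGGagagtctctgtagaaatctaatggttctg
Cd74: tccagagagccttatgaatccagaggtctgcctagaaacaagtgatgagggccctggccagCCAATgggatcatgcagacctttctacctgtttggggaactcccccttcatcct
They lie at chr20:4576927-4577056 (plus strand), chr20:4604119-4604248 (minus), chr20:4515263-4515392 (plus), chr20:4560183-4560312 (minus), chr20:4712336-4712465 (minus) and chr18:56526956-56527070 (plus).

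The Y box core was found in the 300-base promoter window of all 6 genes, against 37.7% of 27457 rat promoter windows of that length. GCAAC was found in the window of 4 of the 6, against 35.2% of all windows, and in that of Cd74 it lies outside the stretch shown. RT1-Ba, RT1-Da and RT1-Db1 carried GCAAC followed by ATTGG on the same strand at a distance of 15 to 35 bases, an arrangement that 0.896% of all windows held. The 2 cores were 28 bases apart in RT1-Ba and RT1-Da and 27 in RT1-Db1. TGACGTCA stood between the other cores of RT1-Ba alone, and 1.91% of all windows held it. The letters were chosen with these promoters in view, so the counts are a description of sequence and no evidence of binding. Only exact matches were looked for, so a stretch without a match is not shown to lack a box.

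**Figure D1:**
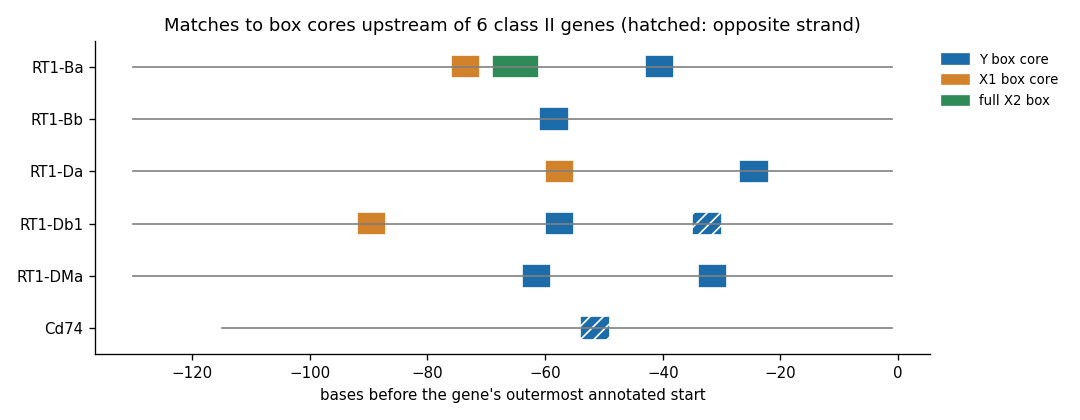
Positions of the box cores in the sequences shown for 6 class II genes, in bases before the outermost annotated start of the gene (x axis), with hatched bars on the opposite strand. The X1 and Y box cores of RT1-Ba, RT1-Da and RT1-Db1 stand 27 or 28 bases apart.

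Between total tumours and biopsies, no difference in a class II gene was larger than the spread between tumours. Mean signals were higher in the total tumours for 6 of the 8 genes, beside 51.2% of the 10793 genes tested, and the median difference was 0.0296 on the log2 scale beside 0.00393 over all those genes. In limma's fit over all probe sets, 0 of the 8 passed a Benjamini-Hochberg adjusted p of 0.05 (background 0.0%), and 0 had an unadjusted p under 0.05 (background 4.17%). The methods' t-test gave 0 at either level too. Of the 13 class II probe sets tested, 0 had an unadjusted p under 0.05 in limma, beside 6.08% of all probe sets. None of the 8 went the same way in all 5 pairs, as 5.83% of all genes did. The count of 6 rested on single tumours: it was 0 without 37I1, 1 without 31D3, and 8 without 50I1 or without 52I4.

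What these averages hide is a large movement in single tumours, shared by the whole group. All 8 genes were higher in the total tumour than in the biopsy in 31D3, where 50.4% of all genes tested were higher. In 37I1 again all 8 were higher (background 49.6%). In 50I1 all 8 were lower in the total tumour (background 50.9%), and in 52I4 too (background 49.9%). In 32D1, 5 of the 8 were higher (background 48.6%) and 3 lower (background 51.4%), with differences between -0.0805 for Cd74 and 0.16 for Ciita. In 37I1 the mean over the 8 genes differed by 1.70, which is 3.24-fold, and in 31D3 by 0.64. It was lower by 2.94-fold in 50I1, with a difference of -1.56, and by 1.70-fold in 52I4, with -0.77. The mean of these 5 differences was 0.0152 and their SD 1.26. In bulk samples, fewer cells of a type and less RNA per cell cannot be told apart.

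**Figure D2:**
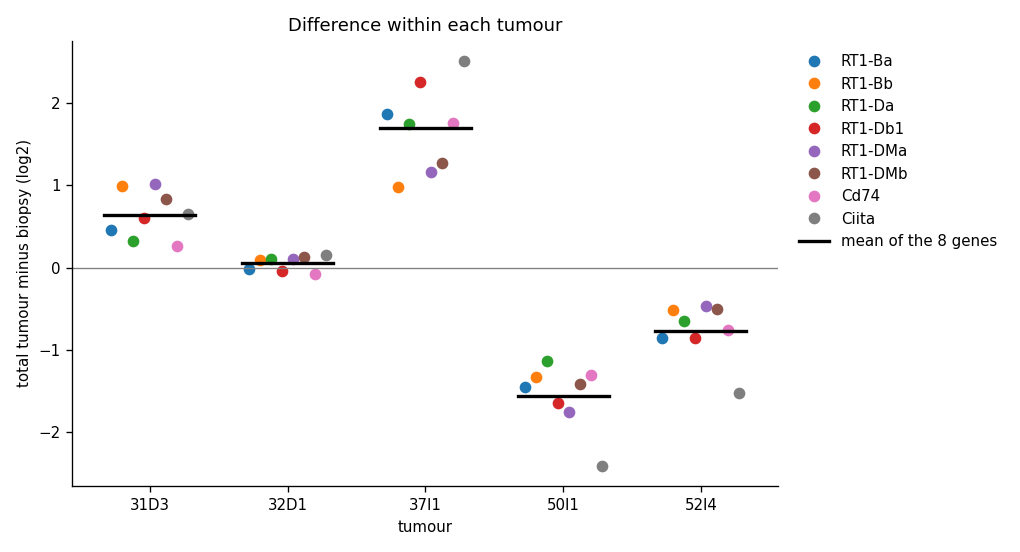
Total tumour minus biopsy on the log2 scale (y axis) for the representative probe set of each class II gene (points) in each tumour (x axis), with the mean of the 8 genes as a black bar. The mean lies at 1.70 in 37I1 and at -1.56 in 50I1, and Ciita lies farthest out in 37I1, 50I1 and 52I4.

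The alpha chain of RT1-D and the invariant chain showed the pattern most closely together. In the values of each array that follow, tumours are in the order 31D3, 32D1, 37I1, 50I1 and 52I4. RT1-Da, read by 1370883_at, had log2 signals of 13.74, 13.05, 13.23, 12.49 and 12.43 in the total tumours, against 13.41, 12.95, 11.48, 13.63 and 13.09 in the biopsies. Cd74, read by 1367679_at, had log2 signals of 13.79, 12.98, 13.22, 12.41 and 12.39 in the total tumours, against 13.52, 13.06, 11.47, 13.72 and 13.15 in the biopsies. For both, biopsy 37I1 was the lowest of all arrays and total tumour 31D3 the highest, and the groups overlapped. RT1-Da averaged 12.99 ± 0.54 (SD, n = 5) in the total tumours and 12.91 ± 0.84 (SD, n = 5) in the biopsies, a difference of 0.0774 (SE 0.397, adjusted p = 0.982 in limma). Cd74 averaged 12.96 ± 0.59 (SD, n = 5) in the total tumours and 12.98 ± 0.89 (SD, n = 5) in the biopsies, a difference of -0.0251 (SE 0.418, adjusted p = 0.995 in limma). With each centred on its own mean over the arrays, RT1-Da minus Cd74 stayed between -0.0937 and 0.10 on every array.

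RT1-Db1, the beta chain that pairs with RT1-Da, had 2 probe sets with the same extremes. The brighter one, 1370383_s_at, had log2 signals of 12.56, 11.46, 11.61, 10.76 and 10.56 in the total tumours, against 11.95, 11.50, 9.35, 12.40 and 11.42 in the biopsies. It spanned 3.22 log2 units over the 10 arrays, with biopsy 37I1 again the lowest, and differed by 0.0656 between the groups (SE 0.531, adjusted p = 0.990 in limma). The other, 1370382_at, had log2 signals of 8.60, 7.40, 7.35, 6.73 and 7.03 in the total tumours, against 7.68, 7.37, 6.003, 8.06 and 7.98 in the biopsies. Both probe sets ranked biopsy 37I1 lowest and total tumour 31D3 highest, and the second differed by 0.00351 between the groups (SE 0.415). The suffix of the first says that its probes match more than one transcript, so related RT1 beta chains may share its signal.

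The DM genes, which load peptide, followed the same tumours with a smaller span. RT1-DMa had log2 signals of 10.46, 9.63, 9.50, 8.41 and 8.61 in the total tumours, against 9.44, 9.52, 8.34, 10.17 and 9.07 in the biopsies. RT1-DMb had log2 signals of 11.70, 10.91, 11.21, 9.997 and 10.19 in the total tumours, against 10.86, 10.78, 9.94, 11.41 and 10.69 in the biopsies. The spans over the 10 arrays were 2.12 log2 units for RT1-DMa and 1.75 for RT1-DMb, and the lowest array was biopsy 37I1 for each. RT1-DMa averaged 9.32 ± 0.83 (SD, n = 5) in the total tumours and 9.31 ± 0.67 (SD, n = 5) in the biopsies, and its difference was 0.0131 (SE 0.427, adjusted p = 0.998 in limma). RT1-DMb differed by 0.0651 (SE 0.385, adjusted p = 0.985 in limma). In 31D3 the DM genes showed larger differences than RT1-Da and Cd74, with 1.02 for RT1-DMa and 0.84 for RT1-DMb, beside 0.33 for RT1-Da and 0.26 for Cd74. In 37I1 the order was the other way, with 1.16 and 1.27 for RT1-DMa and RT1-DMb, beside 1.75 for RT1-Da and 1.76 for Cd74. RT1-Db1 differed by 0.61 in 31D3 and 2.26 in 37I1 on 1370383_s_at. On 1370382_at it differed by 0.92 in 31D3, above RT1-DMb, and by 1.35 in 37I1, close to the DM genes. These gaps between genes were not tested.

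Ciita, the coactivator, had the widest span of the representative probe sets. Its brighter probe set, 1379381_at, had log2 signals of 8.36, 7.29, 7.66, 6.34 and 5.90 in the total tumours, against 7.71, 7.13, 5.15, 8.75 and 7.43 in the biopsies. The lowest array was biopsy 37I1 and the highest biopsy 50I1, 3.604 log2 units apart, so both extremes were biopsies. Only 2.2% of all genes tested had a larger SD over the 10 arrays. Ciita averaged 7.11 ± 0.99 (SD, n = 5) in the total tumours and 7.23 ± 1.32 (SD, n = 5) in the biopsies, a difference of -0.12 (SE 0.683, adjusted p = 0.985 in limma). Within tumours its difference was 2.51 in 37I1, -2.41 in 50I1 and -1.53 in 52I4. The second probe set, 1369214_a_at, had log2 signals of 7.68, 6.72, 6.92, 6.19 and 6.02 in the total tumours, against 6.95, 6.77, 5.66, 7.96 and 6.83 in the biopsies. It kept the same lowest and highest arrays over a span of 2.296 log2 units.

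**Figure D3:**
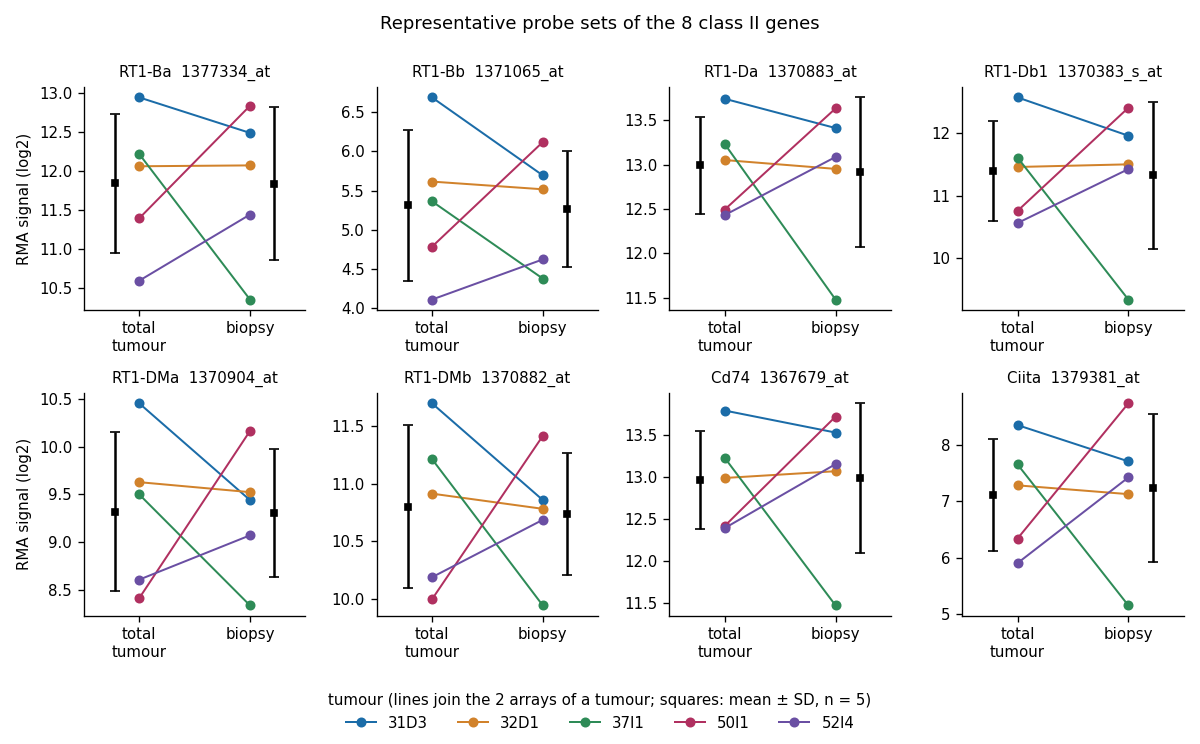
Log2 signals (y axis) of the representative probe set of each class II gene in total tumours and biopsies, with lines joining the arrays of a tumour and squares for mean ± SD (n = 5). Biopsy 37I1 is the lowest biopsy and total tumour 31D3 the highest total tumour in all 8 panels, while the means of the groups lie close together.

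Within the biopsies, 37I1 was the lowest and 50I1 the highest for all 8 representative probe sets. Within the total tumours, 31D3 was the highest for all 8, and the lowest was 52I4 for 6 genes and 50I1 for 2. Across the 10 arrays, Pearson correlations between the 28 pairs of genes lay between 0.820 (RT1-Bb with RT1-Da) and 0.996 (RT1-Da with Cd74), with a median of 0.927. Since the 10 arrays came from 5 tumours, this is a description only. The median correlation was 0.929 without tumour 37I1 and 0.919 without the biopsies 37I1 and 50I1, so the median did not rest on those extreme arrays. Without tumour 31D3 the median was 0.913 and the lowest correlation 0.763, each the lowest of the settings that left out a tumour or these biopsies.

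The classical RT1-B genes departed from this common pattern in tumour 52I4, where probe sets of the same gene disagreed. RT1-Bb, the beta chain, had a probe set, 1371033_at, with log2 signals of 3.66, 3.53, 3.72, 3.63 and 10.86 in the total tumours, against 3.53, 3.54, 3.54, 3.28 and 11.90 in the biopsies. Both arrays of 52I4 were on, at 10.86 in the total tumour and 11.90 in the biopsy, while the other 8 arrays lay between 3.28 and 3.72. The empty stretch between them was 7.15 log2 units, or at least 142-fold, since the arrays that were off lay under the filter limit. A probe set was counted as on in some tumours and off in others when such a stretch of at least 2 log2 units kept both arrays of every tumour on the same side. Only 9 of 31042 probe sets met this (0.029%), 1371033_at was the only class II one, and its stretch was the widest measured on the array. Next in order came a probe set with a stretch of 5.09, annotated to several genes of the rat MHC and so named for none of them. It was off in 52I4, at 5.96 in the total tumour and 3.65 in the biopsy, and between 11.05 and 12.62 in the other arrays.

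The other RT1-Bb probe set, 1371065_at, had log2 signals of 6.69, 5.62, 5.36, 4.79 and 4.11 in the total tumours, against 5.69, 5.52, 4.38, 6.12 and 4.62 in the biopsies. It was dim, and 52I4 was the lowest total tumour and the second lowest biopsy. By mean signal it stood only just above the other, at 5.29 against 5.12, so the 2 probe sets fell on either side of the filter limit of 5.15. The choice decided what RT1-Bb looked like: 1371065_at followed the other class II genes, with a correlation of 0.899 with their mean, while 1371033_at had -0.266. The difference between the groups was 0.0461 for 1371065_at (SE 0.361, adjusted p = 0.989 in limma) and -0.0753 for 1371033_at (SE 0.205, adjusted p = 0.947 in limma with no filter). On 1371033_at the other tumours were off, so only 52I4, which differed by -1.04, carried signal. Its correlation and its difference therefore do not describe RT1-Bb between the groups.

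RT1-Ba, the alpha chain of the same molecule, showed a like split. Its brightest probe set, 1377334_at, had log2 signals of 12.95, 12.06, 12.22, 11.39 and 10.59 in the total tumours, against 12.49, 12.07, 10.35, 12.84 and 11.44 in the biopsies. The second, 1370822_at, had log2 signals of 8.45, 7.93, 7.77, 7.13 and 10.32 in the total tumours, against 7.49, 7.49, 6.75, 7.36 and 11.24 in the biopsies. On 1370822_at the arrays of 52I4, at 10.32 in the total tumour and 11.24 in the biopsy, stood 1.87 log2 units above every other array, just short of the limit of 2. On 1377334_at, 52I4 had the lowest total tumour, and its biopsy was above only that of 37I1. RT1-Ba differed by 0.0039 on 1377334_at (SE 0.456, adjusted p = 0.998 in limma) and by 0.25 on 1370822_at (SE 0.302, adjusted p = 0.922 in limma).

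Set against Cd74 within each array, both centred on their own means, the offset of 52I4 became plain. Probe set 1377334_at of RT1-Ba lay at -0.66 in the total tumour and -0.58 in the biopsy of 52I4, while the other 8 arrays lay between 0.0156 and 0.29. Probe set 1371065_at of RT1-Bb lay at -0.59 in the total tumour and -0.84 in the biopsy of 52I4, and between -0.18 and 0.60 elsewhere. On 1370822_at the arrays of 52I4 stood 2.65 above the next, so its stretch passed 2 log2 units once the level of Cd74 was taken off. No such stretch was present for RT1-Da, RT1-Db1, RT1-DMa or Ciita on any probe set, and for RT1-DMb it was 0.0607, with 37I1 above. These offsets were looked at after the values had been seen, so they are given without a test. Both arrays of 52I4 lay on the same side of the other 8 in each of these 3 comparisons. An allele effect, in which probes match the transcripts of some alleles and not of others, is possible here but was not tested, and no probe or genotype sequence was used.

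**Figure D4:**
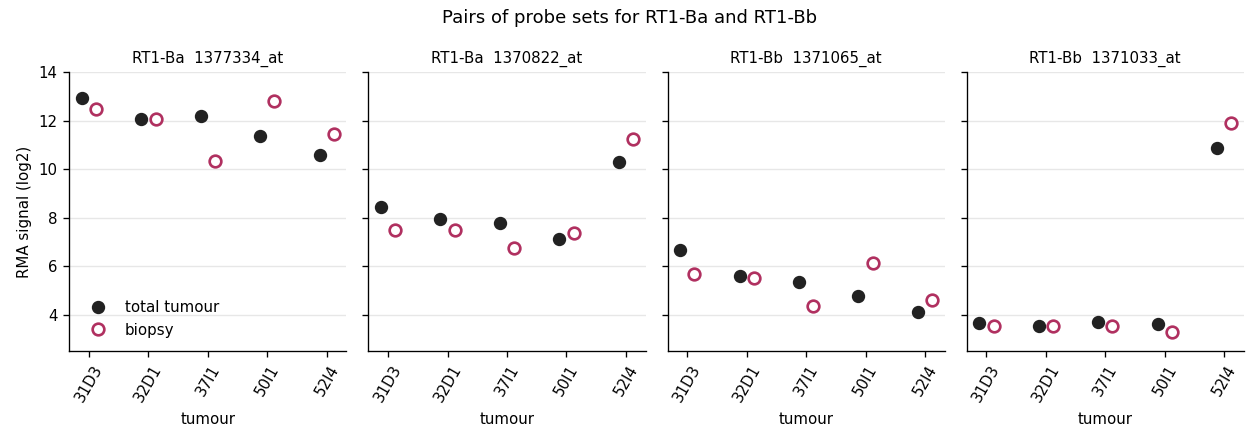
Log2 signals (y axis) of the paired probe sets of RT1-Ba and RT1-Bb in the total tumour (filled) and the biopsy (open) of each tumour (x axis), to be read within a panel. Both arrays of 52I4 stand above all others on 1370822_at and 1371033_at, by 1.87 and 7.15 log2 units.

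The remaining 2 probe sets of RT1-Ba, 1392334_at and 1381593_x_at, carried none of the common pattern. They spanned 0.77 and 0.61 log2 units over the 10 arrays and had correlations of -0.209 and -0.449 with the mean of the other genes. By the annotation both were designed from the same sequence record, and the suffix of the second marks probes that also match other transcripts. The first differed by 0.12 (SE 0.134, adjusted p = 0.922 in limma) and the second by 0.16 (SE 0.115, adjusted p = 0.873 in limma).

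The list of genes that control class II expression held promoter factors and genes of the interferon gamma pathway, and its mean had a correlation of 0.559 with the class II mean over the 10 arrays. Of 17 genes listed, 16 were on the array and 15 were tested. The mean log2 signal of the list differed by -0.13 in 31D3, -0.00492 in 32D1, 0.28 in 37I1, -0.13 in 50I1 and -0.18 in 52I4. Of the 15, 8 were higher and 7 lower in total tumours and 0 passed the test, while 2 had an unadjusted p under 0.05 in limma, both lower in 5 of 5 pairs. Over all genes tested, 4.17% had such a p and 5.83% went the same way in 5 of 5 pairs. The 2 genes were Nfyb, a subunit of NF-Y, with a difference of -0.31 (SE 0.0912, adjusted p = 0.657 in limma), and the histone acetyltransferase Ep300, with -0.27 (SE 0.102, adjusted p = 0.786 in limma). Rfx5, a subunit of the RFX complex, spanned 0.66 log2 units over the arrays and had a correlation of 0.144 with the class II mean. Irf1, a factor induced by interferon gamma, had a correlation of 0.793 and a difference of 0.35 (SE 0.147, adjusted p = 0.826 in limma). The chains of the interferon gamma receptor, Ifngr1 and Ifngr2, had correlations of 0.667 for Ifngr1 and 0.845 for Ifngr2, and were picked out after their values were seen. Interferon gamma itself, Ifng, stayed under the filter limit, with means of 3.21 ± 0.39 in total tumours and 3.05 ± 0.10 in biopsies (SD, n = 5 each).

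The list of genes that serve class II molecules after synthesis had a mean with a correlation of 0.969 with the class II mean, but its members did not all follow. Of 15 listed, 12 were tested, 7 were higher and 5 lower in total tumours, and 0 passed the test, with 0 at an unadjusted p under 0.05 in limma. Ctss, the protease that trims Cd74, had a correlation of 0.947 with the class II mean over the 10 arrays. Ifi30, a reductase that opens proteins for peptide loading, had 0.942. Marchf1, a ubiquitin ligase that takes class II off the surface, had 0.962 and spanned 3.12 log2 units. Cd83, which opposes Marchf1, had a correlation of 0.802. The lysosomal protease Ctsl had 0.322 and Sppl2a 0.217. Marchf8, a relative of Marchf1, had -0.210 and the adaptor gene Ap1g1 -0.390, the lowest of the list and both picked out after their values were seen. Ctsl and Sppl2a, which cleaves the last stub of Cd74, had the smallest p of the list, with differences of 0.27 (SE 0.117, adjusted p = 0.828 in limma) for Ctsl and 0.20 (SE 0.0977, adjusted p = 0.846 in limma) for Sppl2a. The genes of the class II DO molecule, RT1-DOa and RT1-DOb, had no probe set of their own in the annotation.

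The class I pathway, which presents peptides to CD8 T cells, had list means closer to 0 than the class II mean in 4 of the 5 tumours, the exception being 32D1. All 14 listed genes were tested, 12 were higher and 2 lower in total tumours, 0 passed the test and 0 had an unadjusted p under 0.05 in limma. The mean over the list differed by 0.28 in 31D3, 0.0673 in 32D1, 0.41 in 37I1, -0.0545 in 50I1 and -0.0663 in 52I4. B2m, the light chain of class I molecules, spanned 0.40 log2 units over the arrays and Tap1, a peptide transporter, 1.04. Tapbp, which bridges the transporter to class I, and Erap1, which trims peptides, had the smallest p of the list. Tapbp differed by 0.22 (SE 0.101, adjusted p = 0.838 in limma) and Erap1 by 0.19 (SE 0.086, adjusted p = 0.838 in limma). Nlrc5, the class I counterpart of Ciita, had a correlation of 0.851 with the class II mean and differed by -0.00446 (SE 0.298). The list held no RT1 gene, and other RT1 genes were looked at after the values had been seen. RT1-CE5 on 1371209_at had its lowest array in biopsy 37I1, at 8.68, against 10.23 in the total tumour. RT1-S3 on 1388212_a_at had its highest arrays in 37I1, at 11.97 in the total tumour and 11.22 in the biopsy. Whether class I and class II genes differed in their change was not tested.

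The list of costimulation and CD4 recognition differed by 0.74 in 31D3, -0.22 in 32D1, 1.26 in 37I1, -1.31 in 50I1 and -0.46 in 52I4, the direction of the class II mean in 4 of the 5 tumours. Of 12 listed, 9 were on the array and 6 tested, 4 of them higher and 2 lower in total tumours, with 0 past the test and 0 at an unadjusted p under 0.05 in limma. Correlations with the class II mean were 0.963 for Cd4, the T cell coreceptor that binds class II, and 0.906 for Cd86, a costimulatory ligand of antigen-presenting cells. Cd4 and Icoslg, a costimulatory ligand, had the smallest p of the list, with differences of -0.28 (SE 0.430) for Cd4 and 0.40 (SE 0.342) for Icoslg.

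The macrophage and T cell lists differed in the same direction as the class II genes in 4 of the 5 tumours. In 32D1 both were lower, where the class II mean differed by 0.0572. The macrophage list differed by 0.88 in 31D3, -0.35 in 32D1, 1.86 in 37I1, -1.65 in 50I1 and -0.51 in 52I4. Of its 13 genes, 10 were on the array and all 10 passed the filter, 5 of them higher and 5 lower in total tumours and 0 past the test. Their linear signals summed to between 6917 and 17264 in the total tumours, and to between 6244 and 16683 in the biopsies. Csf1r, the receptor for the macrophage growth factor CSF1, had a correlation of 0.978 with the class II mean, Cd68, a lysosomal protein of macrophages, 0.952, and Adgre1, a surface receptor of macrophages, 0.957. Cd14, a receptor for bacterial lipid, had -0.326. The differences were 0.25 (SE 0.247) for Cd14 and 0.21 (SE 0.484) for Adgre1.

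The T cell list differed by 1.52 in 31D3, -0.46 in 32D1, 1.84 in 37I1, -1.53 in 50I1 and -0.89 in 52I4, so that in 31D3 it stood farther from 0 than the class II mean of 0.64. Of its 12 genes, 11 were on the array and 10 tested, 8 of them higher and 2 lower in total tumours and 0 past the test. The sums of their signals ran between 1040 and 7254 in total tumours and between 458 and 3072 in biopsies. Cd3e, a chain of the T cell receptor complex, spanned 4.38 log2 units and had a correlation of 0.933. Cd8a and Cd8b, the chains of the CD8 coreceptor, had the smallest p of the list, with differences of 0.30 (SE 0.458) for Cd8a and 0.25 (SE 0.364) for Cd8b. The part of macrophages or T cells in the class II pattern was not tested.

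Among other antigen-presenting cells, the mean of the dendritic cell list had a correlation of 0.962 with the class II mean over the 10 arrays, and that of the B cell list 0.487. Of 12 dendritic cell genes, 7 were on the array and 5 tested, 2 higher and 3 lower, with sums between 642 and 2916 in total tumours and between 387 and 2256 in biopsies. As a list they differed by 0.47 in 31D3, -0.16 in 32D1, 0.995 in 37I1, -1.14 in 50I1 and -0.61 in 52I4. In 31D3 the tested genes were split: Clec10a differed by 1.72, Ccl22 by 1.33 and Itgax by 0.20, but Batf3 by -0.36 and Clec9a by -0.54. Clec10a spanned 4.38 log2 units over the arrays and had a correlation of 0.943 with the class II mean. Itgax, the integrin CD11c, had a correlation of 0.878 with the class II mean. Batf3, a factor of one dendritic cell lineage, had 0.215 and a difference of -0.35 (SE 0.146, adjusted p = 0.816 in limma), and Clec9a, a receptor of the same lineage, had 0.799 and a difference of -0.24 (SE 0.334). Flt3, a growth factor receptor of dendritic cells, was under the filter limit, with a difference of -1.16 in 31D3, and so was Lamp3, with -0.23.

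Of 10 B cell genes, 7 were on the array and 3 tested, all 3 of them higher and 0 past the test. The defining marker Ms4a1, which encodes CD20, was under the filter limit, with means of 3.97 in total tumours and 3.67 in biopsies, and so was Cd79b, a chain of the B cell receptor complex, with means of 4.65 in total tumours and 4.47 in biopsies. Summed signals ran between 356 and 729 in total tumours and between 402 and 766 in biopsies, and the list differed by -0.0505 in 31D3, 0.0891 in 32D1, 0.23 in 37I1, -0.23 in 50I1 and 0.22 in 52I4. In 31D3 and 52I4 this mean of the 3 tested genes went the other way from the class II genes. Blnk differed by -0.29 in 31D3 and 0.46 in 52I4, Cd22 by -0.0206 and 0.0633, and Fcrla by 0.16 and 0.15. Under the filter limit, Ms4a1 differed by 2.03 in 31D3 and -0.48 in 52I4, and Cd79b by 0.96 and -0.31, the direction of the class II genes. Cr2 (0.38 and 0.18) and Fcer2 (0.12 and 0.16), also under it, were higher in both. The smallest p belonged to Fcrla, with a difference of 0.0954 (SE 0.0914), and Cd22, an inhibitory receptor of B cells, with 0.0342 (SE 0.0943).

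Plasma cell genes, 4 of 6 tested with 3 higher and 1 lower, differed by 0.55 in 31D3, 0.23 in 32D1, 1.17 in 37I1, -0.94 in 50I1 and -0.40 in 52I4, and their mean had a correlation of 0.890 with the class II mean. Jchain, which joins antibody subunits, had 0.853 and Prdm1, a factor of plasma cells, 0.954, both named after their values were seen. The smallest p were those of Xbp1, a factor of secretory cells, with a correlation of -0.118 with the class II mean and a difference of -0.37 (SE 0.149, adjusted p = 0.799 in limma), and of the proteoglycan Sdc1, with -0.161 and 0.24 (SE 0.114). Both are also made by epithelium. The mammary epithelium list, 11 of 11 genes tested with 9 higher and 2 lower, differed by between 0.0117 in 32D1 and 0.36 in 50I1, and its mean had a correlation of -0.457 with the class II mean. Elf5 spanned 5.79 log2 units and differed by -2.06 in 32D1 and 1.99 in 37I1, so the list mean in these tumours leans on it. Correlations of single genes of the list with the class II mean lay between -0.446 for Cdh1 and 0.697 for Krt14. The keratin genes Krt8 and Krt7 of the list differed by 0.37 (SE 0.144, adjusted p = 0.798 in limma) for Krt8 and 0.41 (SE 0.266) for Krt7. The endothelium list, 7 of 8 tested with 6 higher and 1 lower, had a higher mean in the total tumour of 52I4 (0.94), 31D3 (0.80) and 37I1 (0.43) and lower in that of 50I1 (-0.72) and 32D1 (-0.51). In 52I4 it went the other way from the class II genes. In these 3 lists and the dendritic cell list 0 genes passed the test in limma. Beside 4.17% of all genes tested at an unadjusted p under 0.05 in limma, 1 gene was counted in each of 3 lists. These were Batf3 (dendritic cell, lower), Xbp1 (plasma cell, lower) and Krt8 (mammary epithelium, higher). The endothelium, macrophage, T cell and B cell lists had 0. The smallest p of the endothelium list were those of Esam, a junction protein, with 0.29 (SE 0.201), and Eng, the receptor endoglin, with 0.34 (SE 0.278).

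**Figure D5:**
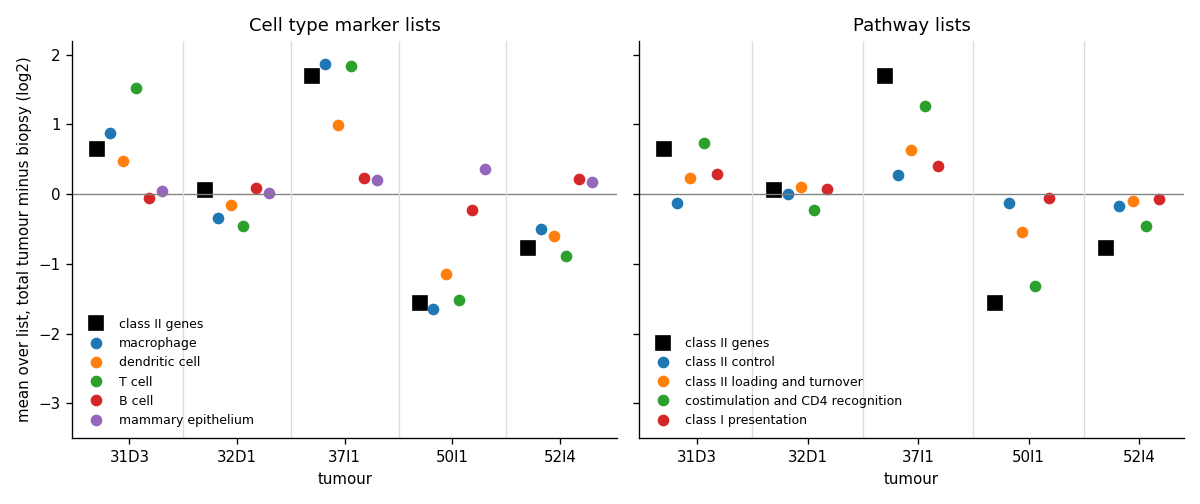
Mean difference of each gene list, total tumour minus biopsy on the log2 scale (y axis), in each tumour (x axis), with the mean of the 8 class II genes as black squares. In 37I1 the macrophage and T cell lists lie at 1.86 and 1.84 beside 1.70 for the class II genes, while in 31D3 the T cell list lies at 1.52 beside 0.64 and in 32D1 these lists lie at -0.35 and -0.46 beside 0.0572.

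The genes with profiles most like the class II mean, among genes tested that are no members, were found by Pearson correlation over the 10 arrays. Highest was Plxnc1, a plexin receptor for semaphorins, at 0.987, with log2 signals of 7.04, 5.90, 6.32, 4.91 and 4.93 in the total tumours, against 6.47, 6.03, 4.41, 6.89 and 6.01 in the biopsies. Biopsy 37I1 was its lowest array. Next were Csf1r at 0.978, the leukocyte tetraspanin Cd53 at 0.975, Tnfaip8l2 at 0.975, Pld4 at 0.975, the complement gene C1qa at 0.973, Glipr1 at 0.970, the lectin receptor Clec4a3 at 0.969, the interleukin 10 receptor chain Il10ra at 0.968 and the thromboxane synthase Tbxas1 at 0.966. None passed the test between the groups in limma, and their differences lay between -0.15 for Pld4 and 0.23 for Tbxas1. For single members the likest gene was Fyb1 for Cd74 (0.985), Glipr1 for RT1-Da (0.973), Cd53 for RT1-Db1 (0.981), Slc15a3 for RT1-DMa (0.980), Gngt2 for RT1-DMb (0.989), Il1b for RT1-Ba (0.962), Skap2 for RT1-Bb (0.960) and Plxnc1 for Ciita (0.979).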

How the data were processed

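Tumour RNA was measured on 10 arrays. The authors deposited log2 signals of 31099 probe sets, normalized with RMA (Robust Multichip Average) per the submitters' processing notes. Its version and chip definition were not stated in the sources used here. RMA removes shifts shared by most transcripts of an array. Signals were used as deposited. Of the probe sets, 57 controls were left out, 20826 of the rest had 1 gene in the platform annotation, 436 several and 9780 none listed, and symbols were updated through gene identifiers. The dimmest 40% (mean log2 under 5.15) were not tested, which left 18625 probe sets and 10793 genes.

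The comparison was fitted with limma 3.58.1 (R 4.3.3). Tumour was a block in it, because the labels pair the samples and the submitters named a paired test. Benjamini-Hochberg adjustment covered all probe sets tested. Deviations from the group means correlated above 0.1 in 4 of 5 pairs, with -0.214 in the other, and at most 0.338 within a tumour beside 0.357 between tumours. The pairing rests on the labels. Whether the tumours came from separate rats is not in the labels, and p-values then measure only how these 5 tumours vary. The members, gene lists and rules were chosen with earlier results of these data known. Named are all members, the 2 smallest p of each list, a fixed set of pathway and marker genes and the 10 likest genes. The test and the search for on and off probe sets were tested on simulated data. Promoters came from RefSeq, on GRCr8. The number of arrays limits the precision. Alternatives were other filters, normalizations, probe sets and tests, and leaving out each tumour.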

Additional observations from a re-analysis of the deposited data

Results flagged for a closer look

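Arrays far from the others of their group of 5 were looked for in 52 groups of values: each class II probe set, the class II mean and the gene lists, in total tumours and in biopsies. In 6 the gap to the nearest other array, as a share of the whole range, was above Dixon's critical value of 0.71. For 1 group taken alone, chance gives about 1 in 20. The groups share arrays and correlate, and the members and lists were chosen with earlier results known. The count of 6 therefore cannot be set against that rate and is a description. Array 52I4 stood above the others for RT1-Bb on 1371033_at, with a share of 0.975 in the total tumours and 0.970 in the biopsies, and for RT1-Ba on 1370822_at with 0.835 in the biopsies. The members were chosen with these probe sets known to be on in 52I4, so these 3 shares only describe that and are not to be read against chance. Biopsy 37I1 stood below the others for Cd74 (0.711, only just above the critical value) and for the T cell list (0.835). In the total tumours 31D3 stood above the others for the T cell list (0.728).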

How the results depend on the processing

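No probe set passed an adjusted p of 0.05 in limma under any filter, normalization, trend, array weights or tumour left out, nor in the paired t-test. With no replicate block the count was 0 as well, with 869 probe sets at an unadjusted p under 0.05 beside 1133 in the paired fit. That unadjusted count lay between 570, without 52I4, and 2128, with no filter on dim signals. The 8 differences of class II genes were small, and their signs were not stable. With a tumour left out they ran between -0.46 and 0.37 for RT1-Ba, -0.19 and 0.39 for RT1-Bb, -0.34 and 0.38 for RT1-Da, -0.48 and 0.49 for RT1-Db1, -0.27 and 0.45 for RT1-DMa, -0.24 and 0.44 for RT1-DMb, -0.47 and 0.29 for Cd74, and -0.78 and 0.45 for Ciita. The count of genes higher in total tumours ran between 0 and 8. Array weights, added after the data were seen, turned 6 genes: RT1-Ba -0.34, RT1-Bb -0.23, RT1-Da -0.21, RT1-Db1 -0.33, RT1-DMa -0.29 and RT1-DMb -0.22. The mean of probe sets gave RT1-Bb -0.0146 and its second probe set -0.0753, both drawing on 1371033_at, which was on in 52I4 alone. Quantile normalization gave RT1-Ba -0.0224, and median centring Cd74 0.00735. Over these alternatives adjusted p for the members lay between 0.705 and 0.9999. A stretch of 1.5 log2 units counted 2 class II probe sets as on and off, beside 27 of all 31042 probe sets. At 2 log2 units it was 1 beside 9. With a tumour left out the class II count lay between 0, without 52I4, and 2, without 31D3, and no count over all probe sets was made. Of the 10 likest genes, between 1 (differences within pairs) and 7 stayed among the first 10 under other settings, those with a tumour or the RT1-B genes left out added after the data were seen, and their correlations stayed at 0.923 or above. The cause of these changes was not tested.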

Other observations

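Other probe sets of the rat MHC region were looked at after the class II values had been seen, and are given as values only. Of 20 further probe sets with 1 RT1 gene, 0 were on in some tumours and off in others at 2 log2 units. The widest stretch, 1.04, was that of RT1-T24-3 on 1388694_at, where tumour 37I1 had 12.57 in the total tumour and 10.99 in the biopsy and the other arrays lay between 9.19 and 9.95. RT1-S3 on 1388212_a_at was also highest in 37I1, at 11.97 in the total tumour and 11.22 in the biopsy, with the other arrays between 10.22 and 10.86. RT1-CE5 on 1371209_at was instead lowest in the biopsy of 37I1, at 8.68, with 10.23 in the total tumour and the other arrays between 9.60 and 10.90. In that tumour the class II genes were the lowest of all biopsies and higher by 1.70 in the total tumour. Among the 9 probe sets of the array that were on in some tumours and off in others, another one set 52I4 apart: 1391743_at, annotated to Elavl1, had 7.48 in the total tumour and 7.55 in the biopsy of 52I4, and between 9.65 and 10.49 in the other arrays.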
